A study of Mus musculus with 20 samples.

Results

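The 3′ end of mouse 18S ribosomal RNA was taken here as the last 281 positions that the deposited table lists, with 1559 positions lying 5′ of them. Mature mouse 18S rRNA is somewhat longer than the table, so its very terminus is not covered, and the whole 18S stands below for the positions in the table. It was set by position number and not by any measured value, though earlier results of these data were known at the time. A stop value was present at 217 of these positions and a mutation value at all 281. Positions carry their number in the table, which holds no bases. For summaries the 3′ end was divided from its 5′ edge into 7 windows of 40 nt, the last of them 41 nt long.

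The 18S ribosomal RNA is the RNA of the small ribosomal subunit. Its 3′ part holds the long penultimate helix, whose top forms part of the decoding site where codon and anticodon meet. Dimethyl sulfate (DMS) methylates bases that are not shielded by pairing or by bound protein. When reverse transcriptase meets such a methyl group it can fall off, which is recorded as a stop, or read through with an error, which is recorded as a mutation.

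The RNA came from female mouse embryonic fibroblasts (MEF, an F1 of 129S1/CastEiJ x 129S1), either untreated or kept for 5 min in 0.5% DMS before quenching. It was taken from the pellet left after the cells were broken open with a dounce, and was copied with primers for 18S. Of the 20 samples, 16 carry a letter, 8 untreated and 8 with DMS. Per the labels they comprise 2 samples per treatment for each of SSIII at 55 °C, AMV at 42 °C, TGIRT-II at 60 °C and a reaction called Zhao, which the labels do not explain. The remaining 4 samples, all of SSIII, are an untreated and a DMS sample copied without Mn2+ and 1 of each copied with it.

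The library names of the 16 lettered samples give the treatment but neither the enzyme nor the letter. All comparisons of DMS with untreated RNA therefore cover the 4 kinds of reaction together, over the 8 pairs formed by each DMS library and the untreated library that the table names as its control. Pairs are numbered 1 to 8 in the order of their names. The names start with 3 different prefixes, which pairs 1 to 4, pairs 5 and 6, and pairs 7 and 8 share, and the mean differences within each prefix, in that order, are given beside the pooled ones for the called positions. The labels do not say whether letters mark separate cultures, so p-values measure the spread between these pairs, which mixes enzymes and may be partly technical. The test takes the 8 pairs as independent, although the labels give 2 samples per treatment for each reaction. Where pairs of a prefix lie close together, the p-values may be too small.

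Values are percentages of an event at a position, and read numbers are not given. The depth is thus not stated, and no counting interval was placed on any value. A high smallest value above 0 in a library can come from few reads. The smallest stop value above 0 in the 3′ end ran from 0.00699% to 2.13% in the untreated libraries (median 0.0257%). It was 2.13% in the control of pair 2 and 0.346% in that of pair 3. In the DMS libraries it ran from 0.0069% to 0.175%. A zero in a library with a high smallest value may hide a smaller value. In all 16 lettered libraries stop values were missing at the same 64 positions, from 1777 to the last position of the table, and no mutation value was missing. Exact zeros made up between 6.45% and 88.0% of the stop values of the untreated libraries in the 3′ end (median 32.0%) and between 3.23% and 62.7% in the DMS libraries (median 19.1%). At positions 1 to 1559 the same shares ran from 1.15% to 20.5% and from 0.962% to 10.1%. Zeros of the mutation values ran from 10.7% to 74.7% in the untreated and from 1.07% to 48.4% in the DMS libraries. In 3 pairs a library had over 50% zeros among its stop values, namely the controls of pair 2 (88.0%) and pair 3 (71.0%) and the DMS library of pair 6 (62.7%).

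**Figure D1:**
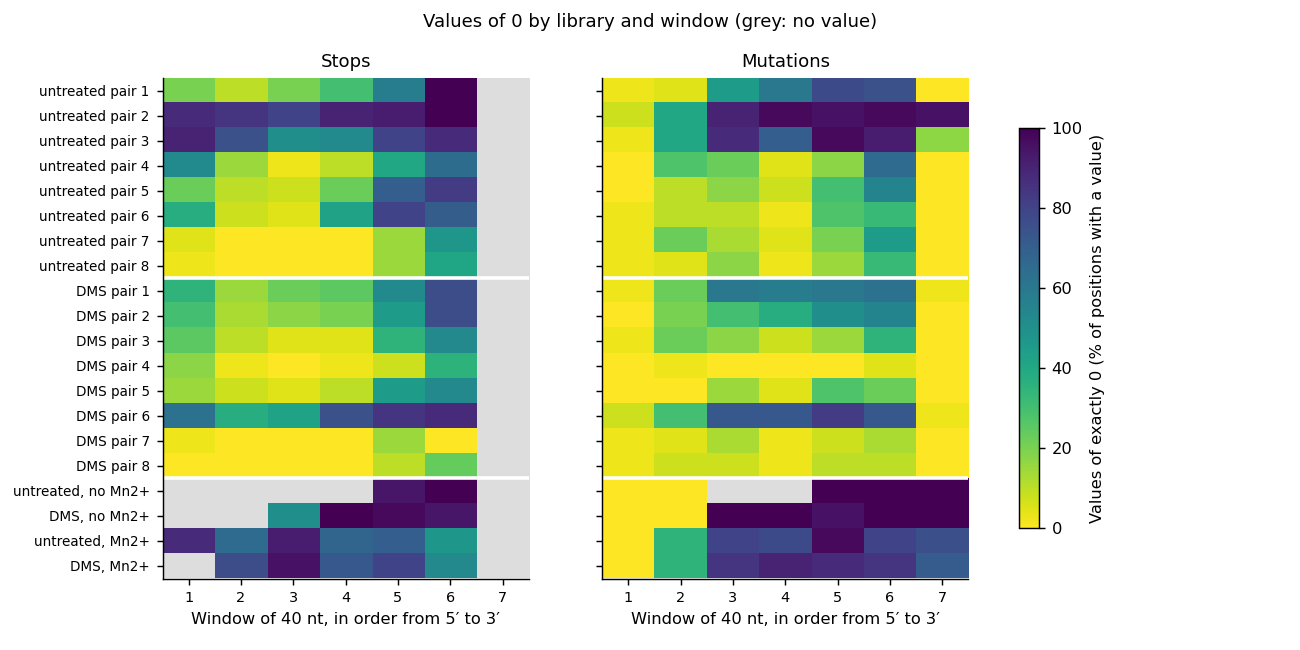
Share of values that were exactly 0 (% of the positions with a value, color scale) for each library (rows) in the 7 windows of 40 nt (columns, numbered from the 5′ edge), for stops on the left and mutations on the right, with grey where no value was present. The controls of pairs 2 and 3 and the 4 libraries of the Mn2+ experiment are dark over most windows in which they have values, and the stop panel is darkest in the fifth and the sixth window.

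Among the stop values zeros were most frequent in the last windows with values and least frequent in the third. The median share of zeros over the 16 libraries was 23.8% in the first window, 10.0% in the second, 5.00% in the third, 15.0% in the fourth, 45.0% in the fifth and 67.6% in the 17 positions of the sixth window that have a stop value. Among the mutation values it was 2.50% in the first window, 50.0% in the sixth and 0% in the seventh. The median untreated stop level over libraries was 0.145%, 0.473%, 0.257% and 0.0784% in the first 4 windows and 0% in the fifth and the sixth. Beyond the alternatives with zeros treated as missing and without the 3 pairs, the part of the zeros in the DMS differences was not tested.

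DMS raised stops at 13 of the 217 positions with stop values and lowered them at 1, by limma on the paired differences of log2(percent + 0.1) with Benjamini-Hochberg adjustment over the 1776 tested positions of the whole 18S. Over the whole 18S the called share was 8.33% higher and 1.63% lower. In the 3′ end it was 5.99% higher (13 positions) and 0.461% lower, and at positions 1 to 1559 it was 8.66% and 1.8%. The share called in the 3′ end was near this background, and the difference between the parts was not tested. Without adjustment, 41 positions of the 3′ end had a stop p under 0.05, of which 4 were lower with DMS. Over the whole 18S, 137 of the 1776 positions were lower with such a p. For the higher ones no share over the whole 18S was taken. The raised positions were 1579, 1580, 1601, 1630, 1663, 1698, 1699, 1700, 1701, 1731, 1745, 1746 and 1767, and 8 of them had a called neighbour. Their mean rises ran from 0.0950 to 4.10 percentage points, and 6 of them exceeded 1 point. The largest mean rise at positions 1 to 1559 was 20.0 points. Over all 217 positions the median log2 difference was 0.18, against -0.03 at positions 1 to 1559.

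DMS raised mutations at 4 of 281 positions, 1601, 1698, 1745 and 1800, and lowered them at none by the same limma test over all positions of the 18S. Over the whole 18S, 4.67% of positions were called higher and 0% lower. The share called higher was 1.42% in the 3′ end and 5.26% at positions 1 to 1559. Without adjustment 29 positions of the 3′ end had a p under 0.05, 4 of them lower, and the exact sign-flip permutation test called 0 after adjustment. The largest mean rise in mutations was 2.07 points here and 15.2 points at positions 1 to 1559. Of the 4 called positions, 3 (1601, 1698 and 1745) were also called for stops, at the same position number in both readouts. The offset of a stop from the methylated base is not given in the sources used here. Whether both readouts at 1 number refer to the same base is thus not known.

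**Figure D2:**
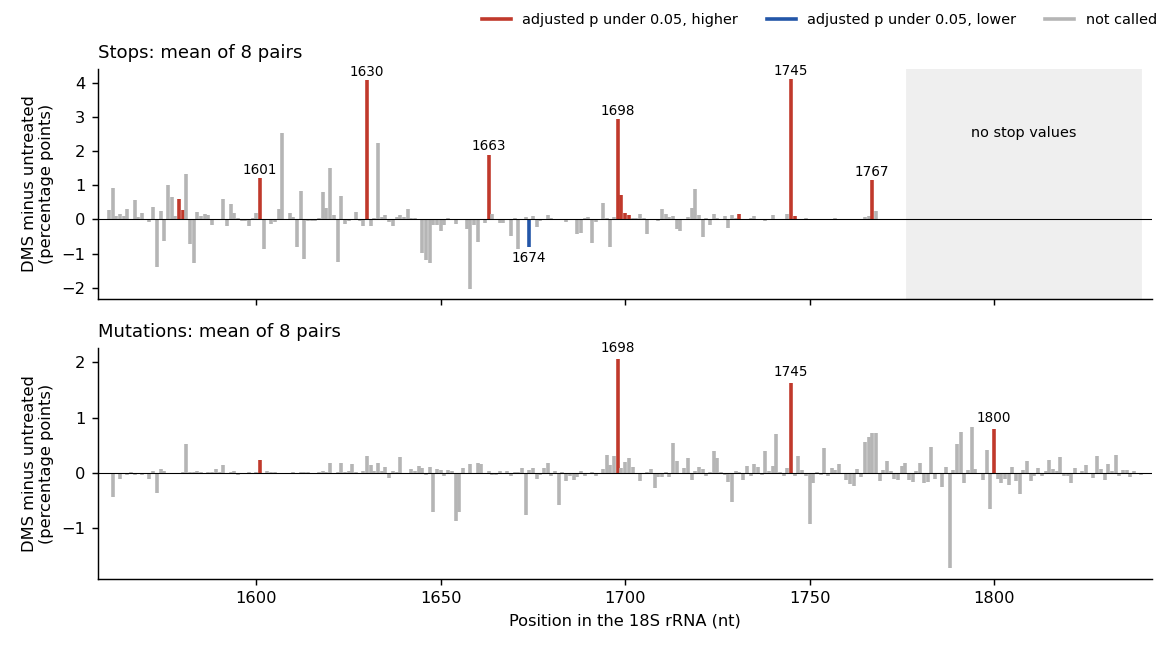
Mean difference between DMS and untreated libraries over the 8 pairs (percentage points) against position in the 18S rRNA, for stops (top) and mutations (bottom), with red for positions called higher, blue for called lower and grey for not called at an adjusted p of 0.05. Stop bars of 4.10 points at 1745, 4.06 at 1630 and 2.95 at 1698 stand highest, and 1698 and 1745 also carry the tallest mutation bars.

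Position 1745 gave the largest rise. Its stops lay at 0% to 0.117% (median 0.0348%) in the 8 untreated libraries and at 1.45% to 9.37% (median 3.29%) in the 8 DMS libraries. The groups did not overlap, and the highest values, 9.37% and 7.32%, belonged to the DMS libraries of pairs 7 and 8. The mean paired difference was 4.10 ± 2.75 percentage points (SD, n = 8 pairs), and the log2 difference was 4.68 (SE 0.25, adjusted p = 2.519e-05). Within the 3 name prefixes the mean rise was 2.61, 2.92 and 8.26 points. Leaving out any 1 pair kept the call, with an adjusted p of at most 0.000285.

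The rise at 1745 was sharp. Stops at 1746 lay at 0% in 7 of the 8 untreated libraries and at 0% to 0.226% in the DMS libraries, and rose by 0.0950 ± 0.0796 points (SD, n = 8 pairs; adjusted p = 0.02654), with prefix means of 0.0693, 0.138 and 0.103 points. In all 8 pairs the difference at 1745 exceeded that at 1746 and that at the position before. The call at 1746 was lost without pair 2, 5, 6, 7 or 8, with adjusted p values of 0.05303 to 0.07246. All values at 1746 lay below the smallest stop value above 0 in the controls of pairs 2 and 3 (2.13% and 0.346%). The zeros of these controls therefore cannot be told from values of this size.

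Mutations at 1745 lay at 0% to 2.57% (median 0.239%) untreated and at 0.296% to 5.88% (median 1.65%) with DMS. The groups overlapped, with 4 controls (pairs 4, 5, 6 and 8) above the lowest DMS value and those of pairs 5 and 6 highest. The mean rise was 2.33 points in pairs 5 and 6, against 0.334 in pairs 1 to 4 and 3.52 in pairs 7 and 8. The mean paired difference was 1.63 ± 1.55 points (SD, n = 8 pairs), higher in 8 of 8, with a log2 difference of 2.05 (SE 0.37, adjusted p = 0.01669). The adjusted p was 0.06003 without pair 8 and 0.3568 without the pairing.

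Position 1698 was the next clear site in both readouts. Its stops lay at 0% to 0.343% (median 0.126%) untreated and at 1.42% to 4.60% (median 3.29%) with DMS, without overlap. Pairs 5 and 6 had the lowest DMS values, and the mean rise in the 3 prefixes was 3.15, 1.35 and 4.13 points. The mean paired difference was 2.95 ± 1.32 points (SD, n = 8 pairs), a log2 difference of 3.76 (SE 0.30, adjusted p = 0.000234), and no left-out pair ended the call.

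Behind 1698 a tail of smaller rises ran to 1701. The mean rises were 0.711 points at 1699 (adjusted p = 0.02204), 0.202 at 1700 (adjusted p = 0.04785) and 0.128 at 1701 (adjusted p = 0.02731), each higher in 7 of 8 pairs. The tail was not a smooth decline in single pairs, since the difference fell at each step from 1698 to 1701 in 2 of 8 pairs. At 1699 the largest differences, 2.18 and 1.83 points, belonged to pairs 1 and 2. The prefix means were 1.30, 0.0626 and 0.171 points at 1699, 0.358, 0.00894 and 0.0843 at 1700, and 0.181, 0.0179 and 0.135 at 1701. At 1700 and 1701 the DMS stops of pairs 2 and 3 lay below the smallest stop value above 0 of their controls (2.13% and 0.346%). The rises of these pairs there cannot be told from none. The calls in the tail depended on single pairs. At 1699 it was lost without pair 1, 3 or 4 (adjusted p 0.05519 to 0.06657), at 1700 without any pair but pair 6 (0.05019 to 0.122), and at 1701 without pair 2, 3, 4, 7 or 8 (0.05527 to 0.07374).

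Mutations at 1698 lay at 0% to 1.84% (median 0.0912%) untreated and at 1.06% to 5.56% (median 1.67%) with DMS. The groups overlapped only through the untreated libraries of pairs 5 and 6, the 2 highest controls. The mean paired difference was 2.07 ± 2.16 points (SD, n = 8 pairs), with 5.44 and 5.56 points in pairs 1 and 2 and 0.0279 points in pair 6. Within the prefixes it was 3.42, 0.425 and 1.01 points. The log2 difference was 2.98 (SE 0.68, adjusted p = 0.04237). Only without pair 5 or pair 6 did the call remain, and without any of the others the adjusted p lay between 0.08516 and 0.1119.

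**Figure D3:**
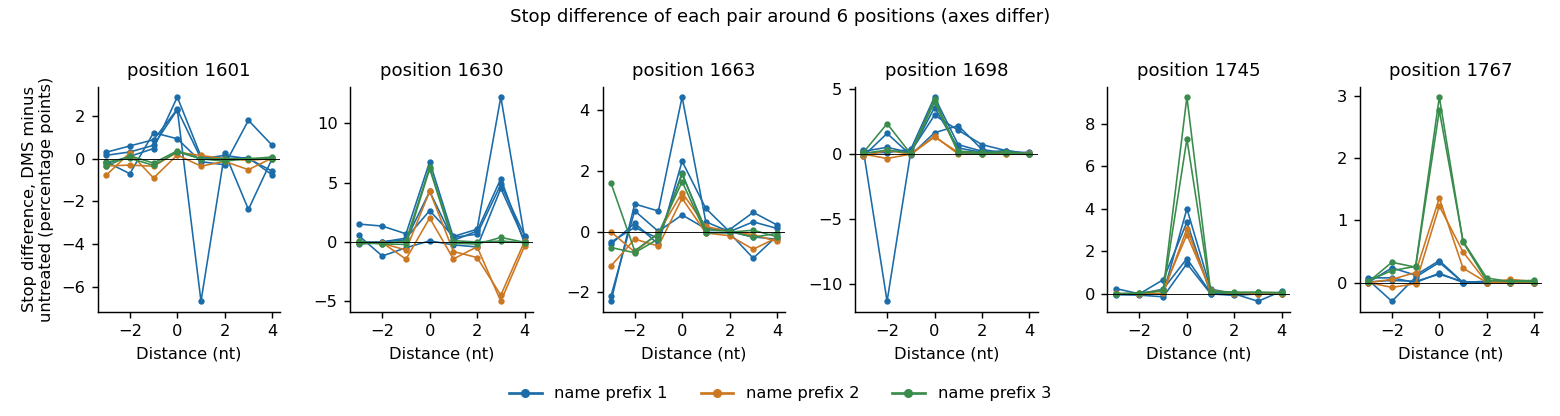
Stop difference of each pair (DMS minus untreated, percentage points; axes differ) from 3 nt before to 4 nt after 6 raised positions, with distance in nt on the horizontal axis and color for the name prefix. In each pair the difference at 1745 stands above its neighbours, smaller differences follow 1698 in some pairs, and 3 nt after 1630 pairs of different prefixes go opposite ways.

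Position 1630 had the second largest rise in stops. The untreated libraries gave 0% to 5.71% (median 0.569%) and the DMS libraries 2.64% to 6.86% (median 5.60%). The groups overlapped through the untreated library of pair 4, at 5.71%, whose own DMS library was only 0.0969 points higher, while the other pairs rose by 2.03 to 6.76 points. The mean paired difference was 4.06 ± 2.35 points (SD, n = 8 pairs), a log2 difference of 3.07 (SE 0.60, adjusted p = 0.01437), with prefix means of 3.44, 3.15 and 6.23 points. No single left-out pair ended the call, but without the 3 pairs with many zeros the adjusted p was 0.05955. Mutations at 1630 had a median of 0.0808% untreated and 0.283% with DMS and were not called (adjusted p = 0.1229).

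Position 1663 was raised for stops alone. Untreated stops ran from 0% to 0.51% (median 0.328%) and DMS stops from 1.06% to 4.44% (median 2.12%), without overlap. The mean rise was 1.90 ± 1.17 points (SD, n = 8 pairs), a log2 difference of 2.54 (SE 0.42, adjusted p = 0.006337), with prefix means of 2.31, 1.20 and 1.77 points. Mutations there had medians of 0.165% and 0.150% and a log2 difference of 0.09 (SE 0.40, adjusted p = 0.9527), higher in 4 pairs and lower in 4.

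At position 1767 the size of the stop rise followed the name prefix. Untreated stops ran from 0% to 0.315% (median 0.0651%) and DMS stops from 0.150% to 3.21% (median 0.881%), with overlap through the DMS libraries of pairs 2 and 4. The mean rise was 0.24 points in pairs 1 to 4, 1.30 in pairs 5 and 6 and 2.88 in pairs 7 and 8. All 8 pairs rose, by 1.16 ± 1.16 points on average (SD, n = 8 pairs), with a log2 difference of 2.25 (SE 0.30, adjusted p = 0.001857). The controls of pairs 2 and 3 were 0%, with DMS values of 0.150% and 0.324%. Both lay below the smallest stop value above 0 of their control (2.13% and 0.346%), so these rises cannot be told from none. On the scale of percentage points the adjusted p was 0.1175. Mutations at 1767 were higher in 7 of 8 pairs, by 0.727 ± 0.889 points, and were not called (adjusted p = 0.2877).

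Position 1601 was called in both readouts, with opposite weights across prefixes. Its stops lay at 0% to 0.519% (median 0.375%) untreated and at 0.524% to 3.37% (median 1.05%) with DMS, without overlap but with neighbouring extremes. The mean stop rise was 2.11 points in pairs 1 to 4, against 0.239 in pairs 5 and 6 and 0.344 in pairs 7 and 8. Over all pairs it was 1.20 ± 1.11 points (SD, n = 8 pairs), a log2 difference of 2.02 (SE 0.55, adjusted p = 0.04934), and the call was lost without any pair but pair 5 (adjusted p 0.0635 to 0.1167).

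Mutations at 1601 lay at 0.213% to 0.611% (median 0.297%) untreated and at 0.271% to 1.14% (median 0.513%) with DMS, and were higher with DMS in 8 of 8 pairs. The mean rise was 0.0802 points in pairs 1 to 4, 0.416 in pairs 5 and 6 and 0.338 in pairs 7 and 8, and 0.229 ± 0.173 over all (SD, n = 8 pairs). The log2 difference was 0.53 (SE 0.11, adjusted p = 0.02731). Without the pairing the adjusted p was 0.8293, and the call was also lost without pair 1, 2, 5, 6, 7 or 8 (0.05084 to 0.08156).

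**Figure D4:**
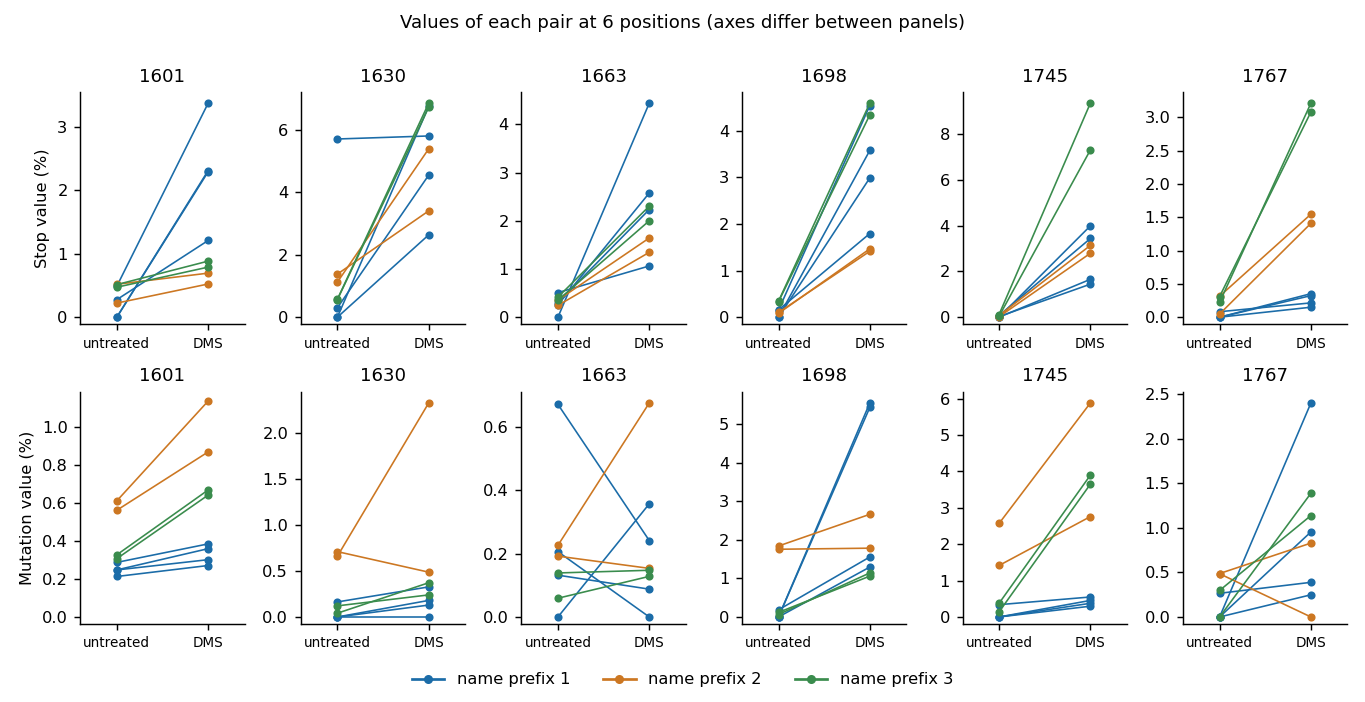
Values of the 8 pairs at positions 1601, 1630, 1663, 1698, 1745 and 1767 (%, axes differ), each line joining an untreated library to its DMS library, for stops (top) and mutations (bottom), colored by name prefix. Every stop line goes up, that of pair 4 at 1630 by only 0.0969 points, while the mutation lines at 1663 go both ways.

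The other raised stop positions were smaller. At 1731 stops lay at 0% to 0.0737% (median 0.00706%) untreated and at 0.0701% to 0.318% (median 0.177%) with DMS, and rose in 8 of 8 pairs by 0.149 ± 0.0856 points (SD, n = 8 pairs; adjusted p = 0.002938). That rise was of similar size in the 3 prefixes, at 0.157, 0.125 and 0.157 points, and no left-out pair ended its call. The groups overlapped at 1731, and 4 untreated values there were 0. All values at 1731 lay below the smallest stop value above 0 in the controls of pairs 2 and 3 (2.13% and 0.346%). Their zeros therefore cannot be told from values of this size. Without the 3 pairs with many zeros the adjusted p was 0.02322. At 1579 stops had a median of 0.139% untreated and 0.700% with DMS, a mean rise of 0.599 ± 0.540 points (SD, n = 8 pairs; adjusted p = 0.04192), and pairs 7 and 8 were lower with DMS. Its prefix means were 0.851, 0.740 and -0.0484 points. At 1580 the untreated median was 0% and the DMS median 0.256%, a mean rise of 0.288 ± 0.237 points (adjusted p = 0.02731), or 0.416, 0.203 and 0.118 points within the prefixes. Both calls depended on single pairs, at 1579 on each of pairs 1 to 6 (adjusted p 0.07067 to 0.09669 without them) and at 1580 on pairs 1, 3, 4, 6 and 7 (0.05748 to 0.07631).

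Position 1800 lies beyond the last position with a stop value, and only its mutations could be compared. They lay at 0% to 1.66% (median 0.391%) untreated and at 0.108% to 5.42% (median 0.659%) with DMS. The groups overlapped, and pair 6 rose by 3.76 points while the others moved by -0.00495 to 1.03 points. The prefix means were 0.188, 2.39 and 0.414 points. The mean was 0.796 ± 1.23 points (SD, n = 8 pairs), a log2 difference of 1.05 (SE 0.23, adjusted p = 0.03597). Without the pairing the adjusted p was 0.9992, and only without pair 4 did the call remain (0.05247 to 0.09076 without each of the others).

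One position, 1674, was called lower for stops. Its stops lay at 0.327% to 3.03% (median 0.984%) untreated and at 0.168% to 0.470% (median 0.372%) with DMS. DMS values were lower in 6 of 8 pairs, and pairs 4 and 8 differed by 0.0412 and 0.00237 points. The mean paired difference was -0.794 ± 0.858 points (SD, n = 8 pairs), a log2 difference of -1.25 (SE 0.32, adjusted p = 0.0425), and within the prefixes it was -1.09, -0.913 and -0.0859 points. Without pair 1, 2, 3, 5, 6 or 7 the adjusted p was 0.07088 to 0.1104. Without the 3 pairs with many zeros the log2 difference was -0.71 (adjusted p = 0.2983). On the scale of percentage points the adjusted p was 0.1539.

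Position 1607 was named after its values were seen, because it was 1 of only 5 of the 217 positions at which all DMS stops lay above all untreated stops, the others being 1601, 1663, 1698 and 1745. At positions 1 to 1559 this held for 52 of 1559. At all 5 the control of pair 2 was 0%. Its smallest stop value above 0 in the 3′ end, 2.13%, was above the lowest DMS value at each of them. That zero may thus hide an overlap. Stops at 1607 lay at 0% to 1.82% (median 1.27%) untreated and at 1.86% to 6.72% (median 3.19%) with DMS. The paired difference was 2.54 ± 1.92 points (SD, n = 8 pairs), above 0 in 8 of 8, but with an adjusted p of 0.0541 the position was not called. Its mutations had medians of 0.356% and 0.363%.

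Stops and mutations shared the rise unequally. The mutation part, taken as the mutation rise over the sum of both rises with a fall counted as a rise of 0, had a median over the 8 pairs of 25.2% at 1698, 23.0% at 1745, 28.7% at 1601, 38.4% at 1767, 3.14% at 1630 and 0.223% at 1663. At 1663 mutations were below the control in 4 of 8 pairs, whose part is therefore 0. The denominators of both readouts and the offset of a stop are not given in the sources used here. This part therefore describes the deposited values at 1 position number and is no share of modified molecules. It differed widely between pairs. At 1698 it ran from 1.97% in pair 6 to 76.8% in pair 1, and at 1601 from 1.84% in pair 4 to 63.6% in pair 5. At 1745 the range was 6.89% in pair 2 to 54.4% in pair 6. The mutation rise was the larger of both in 2 of 8 pairs at 1698, 1 at 1745, 3 at 1601, 2 at 1767, 1 at 1630 and 0 at 1663.

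**Figure D5:**
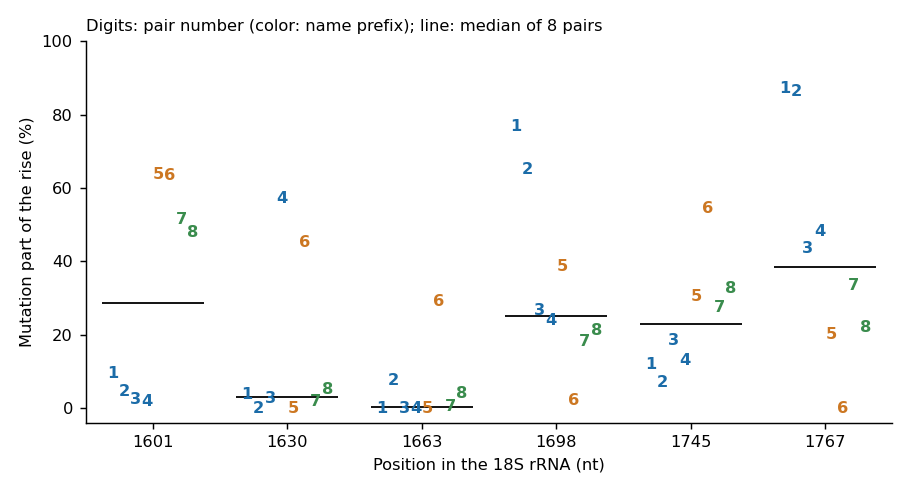
Mutation part of the DMS rise (%, 0 to 100, a fall counted as 0) at 6 positions, each digit giving a pair by its number and each line the median of the 8 pairs, with color for the name prefix. At 1601 pairs 1 to 4 lie at 1.84% to 9.44% and pairs 5 to 8 at 47.9% to 63.6%, while at 1745 pairs 1 to 4 lie between 6.89% and 18.5%.

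The order of the prefixes differed between positions. At 1601 and 1745 the mutation part of every one of pairs 5 to 8 was above that of every one of pairs 1 to 4, and at 1767 it was below. This was seen in the values and was not tested. Across the 217 positions with both values, the stop and mutation differences of a pair correlated with Pearson's r between 0.00276 and 0.256 in pairs 1 to 6 and with 0.720 and 0.647 in pairs 7 and 8. Spearman's rho ran from -0.049 to 0.236 over the 8 pairs. These correlations are across positions of 1 library pair, share its depth, and are a description.

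By windows of 40 nt, the mean stop difference was above 0 in 8 of 8 pairs in the fifth window, which holds 1731 and 1745, with a median over pairs of 0.0831 points. In the sixth window, which holds 1767, it was above 0 in 7 of 8 pairs, with 0.075 points. It was above 0 in 1 of 8 pairs in the third window, with -0.190 points, where 1647, 1658 and 1674 lie. In the first, the second and the fourth window it was above 0 in 5, 5 and 4 pairs. For mutations, the second window was above 0 in 7 of 8 pairs, with 0.0513 points, and the seventh in 3 of 8. Each window mean includes the called positions of that window, and their part in it was not separated. Positions within a window share their reads, so no test was made.

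Untreated RNA also gave stops and mutations. Over the 217 positions the typical stop value, the median over positions of the median of the 8 untreated libraries, was 0.108%, and over 281 positions the mutation value was 0.134%. In the untreated libraries of pairs 1 and 2 the highest stop value lay at 1574, at 19.5% and 20.0%. In those of pairs 3 and 4 it lay at 1647, at 32.8% and 42.8%. The highest median over the 8 untreated libraries was 5.55% at 1658, ranging from 0.439% to 14.1%. DMS values there lay at 0.36% to 11.1% (median 2.88%), lower than the paired control in 8 of 8 pairs by 2.02 ± 1.52 points (SD, n = 8 pairs), with an adjusted p of 0.07571 that did not pass. It was the only position of the 217 with lower stops in 8 of 8 pairs, against 43 of 1559 at positions 1 to 1559. The next highest untreated stop medians were 2.70% at 1613 (1.60% to 11.1%), 2.55% at the last position of the second window (0% to 6.71%), 2.05% at 1618 (0% to 6.12%) and 1.87% at 1633 (0% to 8.17%). These ranges overlapped, and none of the 4 was called.

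Position 1561 had a mutation value near its maximum in each library. Its untreated mutation value lay at 98.3% to 99.9% (median 99.7%) and its DMS value at 97.8% to 99.8% (median 99.2%). Over all 20 libraries, those with Mn2+ included, it lay at 97.5% to 99.9%. It was the 1 position of the whole 18S above 50% in every library. In the 16 lettered libraries the position before it reached at most 0.0129% and the position after it at most 1.09%, and the highest mutation value elsewhere in the 3′ end was 11.8% at 1741. The reference base at 1561 was not known here. DMS made no called difference at 1561 (adjusted p = 0.7249).

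The other high untreated mutation medians lay past 1800, where no stop value exists. They were 1.87% at 1804 (0% to 2.53%), 1.28% at 1812 (0% to 2.79%), 1.15% at 1830 (0.685% to 2.13%) and 1.12% at 1803 (0% to 2.76%). Their ranges overlapped, and none was called for DMS, with adjusted p values of 0.7135 to 0.9527.

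The Mn2+ experiment has 1 library per condition, so its values carry no replicate error and no test. Mn2+ in the reaction is known to make reverse transcriptases less accurate and to let them pass modified bases more often. Beside the 64 positions missing everywhere, stop values were missing from the 5′ edge up to 1743 in the untreated library without Mn2+ and up to 1677 in its DMS library, and up to 1591 and 1601 in the untreated and the DMS library with Mn2+. Mutation values were missing at 1624 to 1744 and at 1624 to 1678 in the untreated and the DMS library without Mn2+, and nowhere with Mn2+. Both stop values were thus present at 33 positions without Mn2+ and at 175 with it, and both mutation values at 160 and 281.

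Most of these values were 0. Without Mn2+, 97.0% of the 33 stop values were 0 in each library, and the smallest value above 0 was 100% untreated and 33.3% with DMS. With Mn2+, zeros made up 70.9% of the untreated and 78.3% of the DMS stop values. Without Mn2+ 1 stop value was higher with DMS, at 1767 (0% untreated and 33.3% with DMS), 1 was lower, at 1744 (100% and 0%), and 31 were equal. With Mn2+ stops were higher with DMS at 31, lower at 35 and equal at 109 positions. The largest rises were at 1602 (0% and 100%), 1618 (0% and 50.0%) and 1628 (16.7% and 60.0%), and the largest falls at 1606 (50.0% and 0%) and 1609 (33.3% and 0%). In the 8 pairs stops were called at none of these largest rises and falls with Mn2+, while 1767 was called higher. Mutations without Mn2+ were higher with DMS at 14 and lower at 51 positions, and with Mn2+ at 80 and 47. The largest falls without Mn2+ were at 1561 (98.9% and 97.5%) and 1569 (1.24% and 0.667%), and with Mn2+ at 1661 (4.08% and 0%). The largest rises in mutations without Mn2+ were at 1747 (0% and 50.0%), 1581 (2.10% and 2.39%) and 1591 (0.528% and 0.810%), and with Mn2+ at 1632 (11.1% and 42.9%), 1745 (0% and 9.52%) and the last position of the fourth window (0% and 9.09%).

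At the sites called in the 8 pairs, DMS values in the Mn2+ experiment lay above the untreated value at some and below it at others. With Mn2+ the smallest stop value above 0 was 1.00% untreated and 1.32% with DMS. The stop differences below may therefore rest on few reads, and no direction is read from them. At 1745 stops with Mn2+ were 1.05% untreated and 1.85% with DMS, beside the mutation values of 0% and 9.52%, and without Mn2+ all 4 values were 0%. At 1698 with Mn2+, stops were 0% and 2.78% and mutations were 0% in both libraries. At 1601 mutations were 0.534% untreated and 0.656% with DMS without Mn2+, and 0.282% and 0.377% with it. At 1767 with Mn2+, stops were 3.85% and 6.67%. At 1800 mutations with Mn2+ were 0% and 2.27%. Stops with Mn2+ were lower with DMS at 1630 (25.0% untreated and 0% with DMS), 1701 (1.45% and 0%) and 1746 (1.04% and 0%). They were 0% in both libraries with Mn2+ at 1663, 1674, 1699, 1700 and 1731, and at least 1 of both was missing at 1579, 1580 and 1601.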

How the data were processed

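Stops and mutations on 18S rRNA were measured in 20 samples, and positions 1560 to 1840 are described, in windows that start at 1560, 1600, 1640, 1680, 1720, 1760 and 1800. The window ends named by place are 1639 and 1719. The deposited table gives both as fractions per library and position. The submitters' processing notes name cutadapt and Bowtie2. Their versions, the reference, the denominators and the rule that calls an event are not given in the sources used here. Loss of reads along the RNA and copies made in PCR may therefore bear on each value.

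Fractions were multiplied by 100 to percent. The 4 libraries of the Mn2+ experiment were matched to samples by name, and 16 others only to a treatment. The enzymes could not be separated, and 9 libraries of another target were not used. Each DMS library was paired with the control named in the table, which the table itself subtracts. Deviations from the group means correlated within every named pair, from 0.233 to 0.693 for stops and from 0.140 to 0.667 for mutations. No 2 libraries held the same values (at most 0.0626% of stop and 0.110% of mutation values above 0 were equal).

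limma 3.58.1 (R 4.3.3, lmFit and eBayes with a trend on the mean level) tested the mean paired difference of log2(percent + 0.1) against 0, two-sided, at positions with values in at least 6 pairs, and p-values were adjusted by Benjamini-Hochberg over all positions per readout and called at 0.05. The pseudocount of 0.1% shrinks the change of low values, and no filter on low values was set. The limma test was tested on simulated data. The alternatives were other pseudocounts, percentage points, no pairing, centring, a filter, zeros as missing, an exact sign-flip permutation test, other sets of pairs and leaving out each pair.

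The positions named were the 8 largest rises and 4 largest falls among called positions per readout, the 5 highest untreated medians per readout, positions called in both readouts and the 3 largest DMS rises per readout and metal state of the Mn2+ experiment. The remaining called stop positions (1580, 1700, 1701, 1731 and 1746) and the falls of the Mn2+ experiment (1569, 1606, 1609, 1661 and 1744) were named after their values were seen. So were 1574, 1607, 1647, 1741 and 1788. The members, rule and tests were chosen with earlier results of these data known. Tables and plots were made with pandas 2.3.3, numpy 2.4.6 and Matplotlib 3.10.9 under Python 3.11.15.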

Additional observations from a re-analysis of the deposited data

Results flagged for a closer look

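In 4 of 29 sets of 8 values, 1 value lay far from the other 7 by Dixon's criterion, which chance passes in about 1 of 20 sets. The stop difference at 1663 was 4.44 points in pair 2 and 0.553 to 2.32 points in the others. The stop difference at 1674 was -2.61 points in pair 2 and -1.12 to 0.0412 points in the others. Untreated stops at 1613 were 11.1% in pair 3 and 1.60% to 4.76% in the others. The mutation difference at 1800 was 3.76 points in pair 6 and -0.00495 to 1.03 points in the others. Each of these pairs had a library with over 50% zeros among its stop values, and the part of the zeros in these values was not tested.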

How the results depend on the processing

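Of 348 alternative values for the 19 results at single positions, 220 kept their direction and their side of the threshold, 127 kept the direction and no longer passed, 1 newly passed (stops at 1658, adjusted p = 0.04135 with zeros as missing) and 0 reversed. The stop calls at 1663, 1698, 1731 and 1745 were lost under the sign-flip test alone. Its smallest possible p with 8 pairs is 0.00781, an adjusted p of 0.0846 here for stops and of 0.125 for mutations. With 1 pair left out, none of these 4 calls was lost. Position 1731 could not be fitted with zeros as missing or after a filter on low values.

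The count of raised stop positions, 13, was 0 by the exact sign-flip permutation test, 5 on percentage points, 7 with zeros as missing and 7 to 13 with 1 pair left out, and it was 8 without the 3 pairs with many zeros, an alternative chosen after seeing the data. The count of lowered stop positions, 1, was 2 after centring, 0 by the sign-flip test, 0 on percentage points, 0 with a pseudocount of 1%, 4 with zeros as missing, 0 to 1 with 1 pair left out and 0 without the 3 pairs. The count of raised mutation positions, 4, was 1 after centring, 0 by the sign-flip test, 0 on percentage points, 2 with a pseudocount of 0.01%, 1 with a pseudocount of 1%, 2 with zeros as missing, 0 to 4 with 1 pair left out and 0 without the 3 pairs. Without the replicate block, that is without the pairing, 1 mutation position was called, and of the 14 stop positions called either way 13 were shared. The typical untreated stop value of 0.108% was 0.190% when libraries were averaged by their mean. The causes were not tested. Depth is not stated, so the zeros, which reach 88.0% of the stop values of 1 control, cannot be read as absent events.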

Other observations

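Some positions that no test called differed in direction between the name prefixes of the pairs. These were picked after their values were seen, and no difference between prefixes was tested. At 1633, which lies 3 nt past the raised position 1630, stops were higher with DMS by 6.72 points on average in pairs 1 to 4, lower by a difference of -4.74 points in pairs 5 and 6 and close to the control in pairs 7 and 8 (0.224 points). At 1788 the mutation difference was 0.813 points in pairs 1 to 4, -7.77 points in pairs 5 and 6 and -0.80 points in pairs 7 and 8. The mean of both untreated libraries of pairs 5 and 6 at 1788 was 8.94%.

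At 1581 the readouts again weighed differently by prefix. The mean stop difference was 2.52, -0.130 and 0.455 points in the prefixes of pairs 1 to 4, 5 and 6, and 7 and 8, and the mean mutation difference was 0.0826, 0.881 and 1.04 points. Neither readout was called at 1581 (adjusted p = 0.2234 for stops and 0.1568 for mutations). At 1591 mutations were higher with DMS in 8 of 8 pairs, by 0.130 ± 0.0738 points (SD, n = 8 pairs), with an adjusted p of 0.0622.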
